A study of Mus musculus with 13 samples.

Results

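Gas5, Snhg1, Snhg3, Snhg5, Snhg6, Snhg8 and Snhg12 are long noncoding genes that carry small nucleolar RNAs (snoRNAs), and Malat1 and Neat1 are long noncoding RNAs that stay in the nucleus. These 9 genes were found by symbol among the 53465 genes of a table of TPM values (reads per kilobase of gene length, scaled to a total of 1000000 in every library), and their levels were compared between mouse ovarian tumors and normal ovaries. RNA of bulk tissue was polyA-selected and sequenced in 3 wild-type (WT) ovaries and 10 MP tumors, all from untreated female C57BL/6 mice.

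The label protocol, given alike for ovaries and tumors, describes mice of 8 to 12 weeks. MP tumors are EPO-GEMM tumors, made by somatic editing without a germline allele. The ovary was injected with plasmids and electroporated, which delivered Cas9 with a guide RNA against Trp53, a transposon vector overexpressing MYC and the Sleeping Beauty transposase. The labels give the genotype as Myc;p53-/- and that of the ovaries as WT. The electroporation does not select a cell type, tumors were taken whole at the end point, and no control ovary with empty plasmids was analysed here. The labels do not say whether each library came from a separate animal, so P values measure the spread between these libraries.

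The library names carry 3 project numbers. WT ovaries 1 to 3 and MP tumors 1 to 3 share the first (library set 1), MP tumors 4 to 6 the second (set 2) and MP tumors 7 to 10 the third (set 3), so the later sets hold tumors only. Depth, worked back from the TPM values, was 31445004 to 64013840 reads in the ovaries and 3892690 to 19906507 in the tumors. MP tumor 2 stood apart, with 55.1% of its TPM in 10 genes, against at most 20.6% in the other tumors. Trp53 RNA was at 80.7 to 85.4 TPM in the ovaries, at 4.30 to 26.0 in 9 tumors and at 187 in the library labelled MP tumor 10; a guide RNA changes the sequence of a gene and need not lower its RNA. Mouse Myc RNA was at 125.5 to 129 TPM in the ovaries and at 7.09 to 419 in the tumors, and the row need not count the transposon's MYC. Leaving out MP tumor 2 or the library labelled MP tumor 10 left 5 of the 9 genes past the threshold, as with all libraries.

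The tissue labels were checked with marker lists. All 8 markers of steroidogenic and luteal cells fell in the tumors, from a summed 27236 to 32473 TPM in the ovaries to 10.9 to 783 TPM, and all 6 granulosa cell markers and 7 of 8 oocyte markers also fell. Markers of epithelial tumor cells summed to 8.28 to 1201 TPM in the tumors and 289 to 320 TPM in the ovaries, with 4 of 8 tested markers lower and 0 higher by limma at an adjusted P under 0.05 (5 lower and 0 higher at an unadjusted P under 0.05, and the same by voom). Pax8, an epithelial transcription factor of the female genital tract, did not pass the filter and reached 23.2 TPM at most. Also lower were 6 of 8 fibroblast and smooth muscle markers, 2 of 5 endothelial markers and 1 of 6 tested leukocyte markers, where 14.3% of all tested genes were lower. By voom on worked-back reads 5 endothelial and 2 leukocyte markers were lower, where 17.6% of all tested genes were lower. Within library set 1 all 5 endothelial and all 6 tested leukocyte markers were lower, where 57.3% of all tested genes were lower. Of 5 erythroid markers 2 rose, where 2.51% of all tested genes were higher, and the list summed to 226 to 432 TPM in the ovaries and 451 to 6177 TPM in the tumors. In bulk RNA, fewer cells of a type and less RNA per cell cannot be told apart, and the part of cell makeup in the values below was not tested.

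snoRNAs guide the chemical modification of ribosomal RNA. Most mammalian snoRNAs are cut from introns of a host gene, and the spliced host RNA is often short-lived because translation of its short reading frames leads to nonsense-mediated decay. Several host genes start at a 5′ terminal oligopyrimidine tract, a C followed by a run of C and T that ties them to growth-regulated translation, as in ribosomal protein genes. Malat1 is an abundant RNA of nuclear speckles, the sites rich in splicing factors. Neat1 is the scaffold of paraspeckles, nuclear bodies that hold RNA-binding proteins, and its long isoform ends in a processed 3′ end without a polyA tail, as Malat1 does.

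The first set of sequences shows the starts of host genes and of Malat1. Each runs 5′ to 3′ from 40 bases before to 30 bases into a RefSeq gene start (GRCm38.p6), and capitals mark a C followed by at least 4 pyrimidines within 10 bases of that start, from the first C of the unbroken run. The windows lie at chr1:161035126-161035195 (Gas5, plus strand), chr3:123508307-123508376 (Snhg8, minus), chr4:132308638-132308707 (Snhg12, plus), chr4:132353657-132353726 (Snhg3, minus), chr9:88522868-88522937 (Snhg5, minus) and, without such a run, chr19:8723447-8723516 (Snhg1, plus) and chr19:5802643-5802712 (Malat1, minus).
Gas5: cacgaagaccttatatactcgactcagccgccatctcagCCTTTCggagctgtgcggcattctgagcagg
Snhg8: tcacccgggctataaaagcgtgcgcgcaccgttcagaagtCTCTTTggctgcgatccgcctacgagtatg
Snhg12: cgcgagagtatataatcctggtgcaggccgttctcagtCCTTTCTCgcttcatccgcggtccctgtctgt
Snhg3: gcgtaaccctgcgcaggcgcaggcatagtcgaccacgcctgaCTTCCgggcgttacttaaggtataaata
Snhg5: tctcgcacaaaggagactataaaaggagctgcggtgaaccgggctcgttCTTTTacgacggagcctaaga
Snhg1: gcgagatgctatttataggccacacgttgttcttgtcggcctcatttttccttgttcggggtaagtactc
Malat1: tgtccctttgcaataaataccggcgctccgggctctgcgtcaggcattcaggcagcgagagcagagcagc

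Of the 6 host genes with a window, 5 held such a run, against 30.7% of 32851 RefSeq windows. The run began on the listed start in Snhg8, 1 base before it in Gas5, 2 bases before it in Snhg12, 2 bases after it in Snhg3 and 9 bases after it in Snhg5. A second RefSeq start of Gas5 had no run. A TATA motif (TATAAA or TATATA, gene strand, 15 to 45 bases before the start) was in 4 of the 6 host genes (Gas5, Snhg8, Snhg12 and Snhg5) and in 2.96% of all windows. The E-box CACGTG, a palindrome and the motif bound by MYC, was in 0 of the 8 windows of these genes searched over 300 bases, against 7.15% of windows. The window length and the motifs were chosen after the sequences had been seen. Snhg6 and Neat1 had no window in the table used.

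The second set shows snoRNAs that the hosts carry, and a 3′ end that is not made by polyadenylation. Snord87, in an intron of Snhg6 (chr1:9942463-9942549, minus strand), and Snord47, in Gas5 (chr1:161038082-161038158, plus), are C/D box snoRNAs, and capitals mark the C box (TGATGA) and the D box (CTGA). Snora24, in Snhg8 (chr3:123507937-123508066, minus), is an H/ACA box snoRNA, and capitals mark its ACA box. The last line is the 3′ end of the long Neat1 transcript (chr19:5824708-5824777, minus), with its A-rich terminal tract in capitals. All 4 are GENCODE transcripts read from the GRCm38 reference.
Snord87: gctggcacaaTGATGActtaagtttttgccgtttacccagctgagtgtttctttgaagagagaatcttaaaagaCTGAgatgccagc
Snord47: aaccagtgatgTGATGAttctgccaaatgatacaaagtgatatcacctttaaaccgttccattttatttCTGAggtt
Snora24: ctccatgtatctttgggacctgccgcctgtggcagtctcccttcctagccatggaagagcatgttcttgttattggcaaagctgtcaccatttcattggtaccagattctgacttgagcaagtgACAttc
Neat1: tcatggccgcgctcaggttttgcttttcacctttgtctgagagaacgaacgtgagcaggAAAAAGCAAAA

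Of the 9 genes, 8 passed the filter of at least 1 TPM in at least 3 libraries, and Snhg3 was listed at 0 in all 13 libraries. Of the 7 host RNAs, 5 were called higher in MP tumors. Calls among the 9 genes numbered 2 without WT ovary 1 or 2 and 0 without WT ovary 3. Gas5, Snhg1, Snhg6, Snhg8 and Snhg12 rose by 1.90- to 3.63-fold between group means, none of the 9 genes fell in the fit without a covariate, and Snhg5, Malat1 and Neat1 did not pass the test (limma on log2(TPM + 1), Benjamini-Hochberg adjusted P under 0.05 over 17277 genes). Over all tested genes, 2.51% were higher and 14.3% lower by the same rule, which is 433 higher and 2463 lower genes, and the log2 fold changes of all 17277 genes had a median of -0.58. Median-of-ratios scaling moved that median to -0.02 and the calls to 1274 higher (7.37%) and 1897 lower (11.0%), with 3 of the 9 genes higher and 0 lower, and quantile normalization gave 1904 and 2091 calls. By voom on worked-back reads, 5 of the 9 genes were higher and 0 lower, against 15.8% higher and 17.6% lower of all tested genes, and the 5 genes at an unadjusted P under 0.05 in limma were the 5 called. The summed TPM of the 7 hosts was 391 to 454 in the ovaries and 651 to 1903 in the tumors, so these groups did not overlap.

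**Figure D1:**
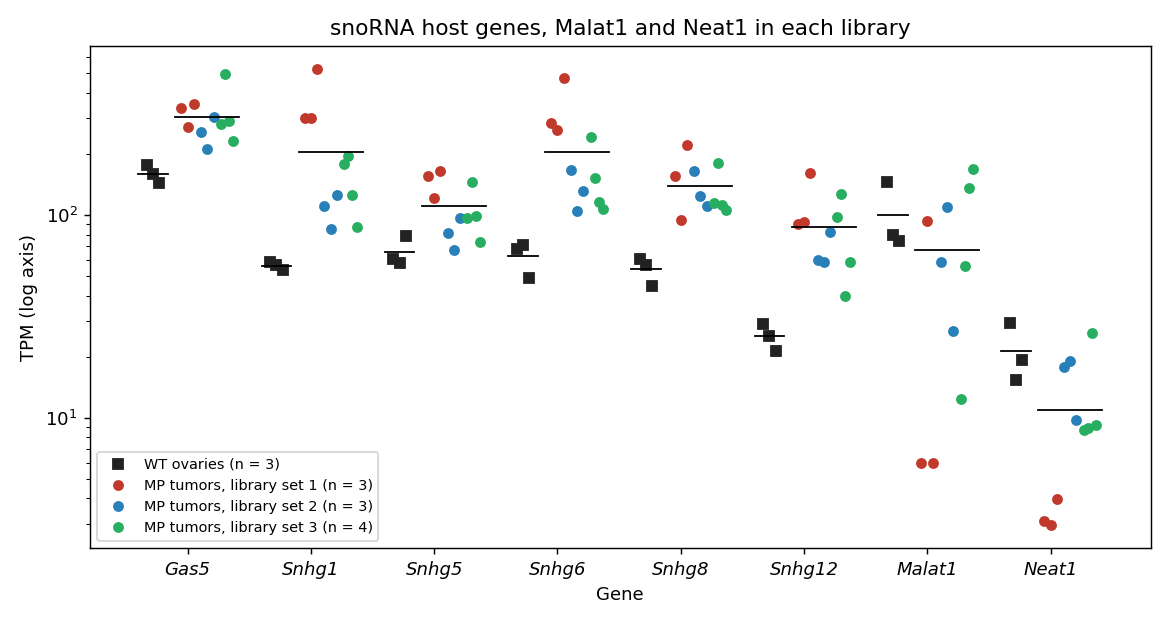
TPM (log axis) of 8 genes in each library, with Snhg3 left out because it was listed at 0. Black squares are the 3 WT ovaries, circles are the 10 MP tumors coloured by library set, and lines are group means; for Gas5, Snhg1, Snhg6, Snhg8 and Snhg12 all tumors lie above all ovaries, while Malat1 and Neat1 spread over 28.1-fold and 8.91-fold among the tumors.

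Gas5 (growth arrest-specific 5; ENSMUSG00000053332, chr1:161034422-161038539, plus strand), which hosts 10 annotated snoRNA rows, was the most abundant of the 9 in both groups. Its level was 177, 159 and 144 TPM in WT ovaries 1, 2 and 3, and 211 at the lowest, 286 at the median and 496 at the highest in the tumors. Every tumor lay above every ovary, and MP tumor 8 stood above the other 9. The means were 160.0 ± 16.2 (SD, n = 3) and 303 ± 80.4 (SD, n = 10) TPM, a log2 fold change of 0.88 (SE 0.27) with a limma adjusted P of 0.0382. The call was lost without any 1 of 8 libraries, namely each ovary and MP tumors 1, 3, 6, 7 and 8 (adjusted P up to 0.168, without WT ovary 3). It was also lost, at the same fold, with a TPM of at least 1 asked of every library (adjusted P 0.0598) and with limma without trend and robust (0.0514).

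Snhg1 (ENSMUSG00000108414, chr19:8723475-8726443, plus strand) hosts 8 annotated snoRNA rows. Its level was 58.7, 56.5 and 53.3 TPM in the 3 ovaries, and 85.5, 152 and 527 TPM at the lowest, median and highest tumor. The ovaries were close together and every tumor was above them, with MP tumor 3 far above the rest. The means were 56.2 ± 2.73 and 203.9 ± 139 TPM, a 3.63-fold difference with a log2 fold change of 1.59 (SE 0.49) and a limma adjusted P of 0.0370.

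Snhg6 (ENSMUSG00000098234, chr1:9941959-9944118, minus strand) hosts Snord87. It was at 68.3, 70.9 and 48.8 TPM in the ovaries, and at 105, 159 and 476 TPM at the lowest, median and highest tumor, again without overlap. The log2 fold change was 1.53 (SE 0.43), from 62.7 ± 12.1 to 204.3 ± 116 TPM, with a limma adjusted P of 0.0245. With libraries scaled by median of ratios, Snhg1 had an adjusted P of 0.0628 and Snhg6 of 0.0507, with log2 fold changes of 2.30 and 2.24. Snhg1 also lost its call without any 1 ovary and without MP tumor 1, 7 or 8 (adjusted P up to 0.141), and Snhg6 without any 1 ovary (up to 0.137). The Snhg1 call was also lost, at the same fold, with no filter (adjusted P 0.0515) and with a TPM of at least 1 asked of every library (0.0510).

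Snhg8 (ENSMUSG00000104960, chr3:123507552-123508404, minus strand) hosts Snora24. It was at 60.6, 56.5 and 44.4 TPM in the ovaries and at 94.7, 119 and 222 TPM at the lowest, median and highest tumor. The groups did not overlap, and the means of 53.9 ± 8.41 and 138 ± 40.7 TPM gave a log2 fold change of 1.31 (SE 0.30) with a limma adjusted P of 0.00851, the lowest of the 8 tested genes.

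Snhg12 (ENSMUSG00000086290, chr4:132308678-132311024, plus strand) hosts Snora16a, Snora44, Snora61 and Snord99. It was at 29.1, 25.4 and 21.3 TPM in the ovaries and at 40.04, 86.6 and 161 TPM at the lowest, median and highest tumor. It was the least abundant detected host in the ovaries and did not overlap between groups. Its log2 fold change, from 25.3 ± 3.87 to 86.9 ± 36.2 TPM, was 1.65 (SE 0.38) with a limma adjusted P of 0.00865. Snhg8 and Snhg12 kept their calls in 12 of the 13 fits that each left out 1 library, and lost them without WT ovary 3 (adjusted P 0.0707 and 0.0633).

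Snhg5 (ENSMUSG00000097195, chr9:88521050-88522929, minus strand) hosts Snord50a and Snord50b. It was at 60.4, 58.2 and 78.9 TPM in the ovaries and at 67.2, 97.8 and 165 TPM at the lowest, median and highest tumor. All but MP tumor 5 and the library labelled MP tumor 10 lay above every ovary, so 8 of 10 did. The log2 fold change of 0.69 (SE 0.33), from 65.8 ± 11.4 to 110.4 ± 35.1 TPM, did not pass, with a limma adjusted P of 0.156. Thus 5 of the 6 detected hosts had no overlap between groups, a pattern that 3.02% of all tested genes showed with the tumors higher and 16.4% with the tumors lower.

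Snhg3 (ENSMUSG00000085241, chr4:132348014-132353686, minus strand) hosts Snora73a and Snora73b, and no read was assigned to it in any library. In the GENCODE annotation 86.3% of its exonic bases were shared with other genes on either strand, the largest share among the 9 genes. Of these, 705 bases lay under exons of Gm17300 on the opposite strand and 135 under exons of Rcc1 on the same strand. By default featureCounts leaves a read that overlaps more than 1 gene unassigned. Whether the authors kept this default is not given in the sources used here, and its part in the 0 was not tested. Both overlapping genes had reads. Rcc1, which encodes the exchange factor of the GTPase Ran, was at 22.1, 27.3 and 31.6 TPM in the ovaries from lowest to highest and at 42.6 to 275 TPM in the tumors, higher by 1.84 on the log2 scale (limma adjusted P 0.0253). Gm17300 was at 0.572 ± 0.326 TPM in the ovaries and 5.53 ± 2.62 in the tumors, higher by 1.95 on the log2 scale (limma adjusted P 0.0099), from 3 to 132 reads a library.

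Annotated snoRNAs inside exons were nearly all at 0 as well. The host loci hold 29 annotated snoRNA rows on the host's strand, 26 of them entirely within bases that some host transcript counts as exon. Of these 26, 25 were at 0 in all 13 libraries, and the other, Snora16a, had 1 read in 1 library. The share of all annotated snoRNA rows at 0 was not taken, so this count is a description. Exons were read from the GENCODE annotation, which gives Snhg12 2402 bases against a deposited length of 1626. Its snoRNAs need not lie in the exons that were counted. The 5 other rows nested in Malat1 and Neat1 were also at 0. All libraries were polyA-selected, and the parts of that selection and of shared bases in these values of 0 were not tested. Bases shared with such rows on the same strand made up 20.95% of the exonic bases of Snhg1, 17.8% of those of Gas5, 15.2% of those of Snhg8 and none of those of Snhg6.

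Snord87 lies in an intron of Snhg6, outside its annotated exons, and it was the single row of the 29 above 0 in all 13 libraries. Snora73b, which also shares no base with an exon of its host Snhg3, was at 0 in all of them. Snord87 was at 3.10, 6.24 and 8.85 TPM in the ovaries from lowest to highest, and at 7.39, 26.8 and 59.0 TPM at the lowest, median and highest tumor. MP tumor 3 was the highest for Snord87 as for Snhg6, the library labelled MP tumor 10 the lowest, and 9 of 10 tumors lay above every ovary. The log2 fold change was 1.84 (SE 0.58) with a limma adjusted P of 0.0419. These values rest on 1 to 45 reads a library, and the mature snoRNA and unspliced Snhg6 RNA cannot be told apart in them.

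Within library set 1, where 3 tumors and 3 ovaries share a project number, all 6 detected hosts were higher by limma at an adjusted P under 0.05, against 6.44% of all tested genes. The log2 fold changes were 2.67 for Snhg1 (adjusted P 0.000383), 2.39 for Snhg6 (0.000909), 2.10 for Snhg12 (0.00129), 1.46 for Snhg8 (0.0133), 1.15 for Snhg5 (0.0138) and 0.99 for Gas5 (0.0233). In this comparison 57.3% of genes were lower and the median log2 fold change was -1.20. Sets 2 and 3 hold no ovary, so the comparison could not be made within them. With all libraries and the library set as a covariate, the fold changes come from set 1 alone, because the other sets hold no ovary. They equal those of set 1 by design, so this fit is no separate support. In it all 6 hosts were higher by limma, and Malat1 (-2.54, adjusted P 0.0483) and Neat1 (-2.33, adjusted P 0.000855) were lower. Of all tested genes, 5.17% were higher and 49.4% lower.

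**Figure D2:**
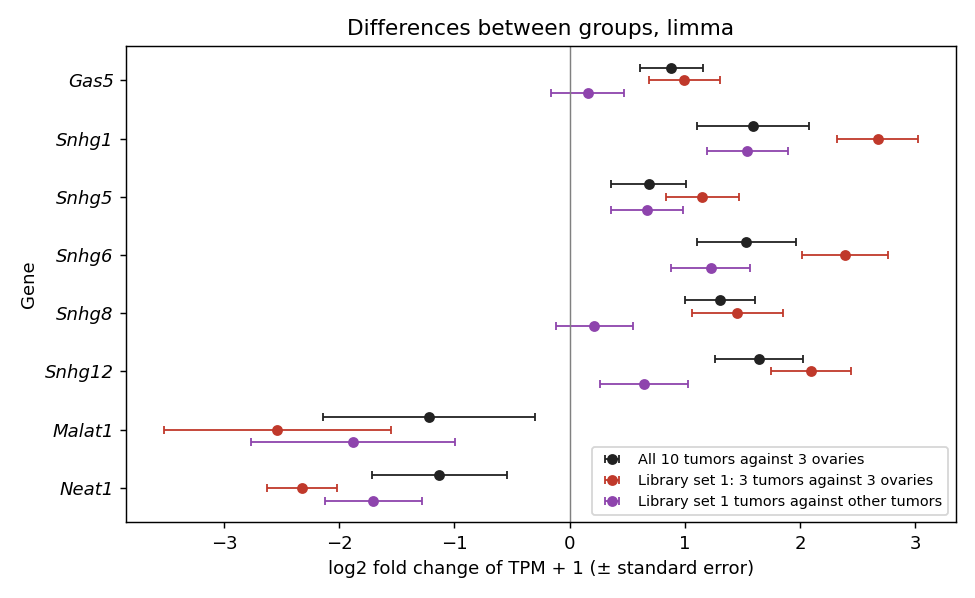
log2 fold change of TPM + 1 with its standard error from limma, for 10 MP tumors against 3 WT ovaries (black), 3 tumors against 3 ovaries of library set 1 (red) and set 1 tumors against the other 7 tumors (purple). All hosts lie right of 0 in the first pair of comparisons; the Snhg1 estimates are 1.59 and 2.67, and those of Neat1 -1.13 and -2.33.

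Malat1 (ENSMUSG00000092341, chr19:5795690-5802672, minus strand) had the widest fold range among the tumors of the 8 detected genes. It was at 146, 80.1 and 74.6 TPM in WT ovaries 1, 2 and 3, and at 5.98, 57.3 and 168 TPM at the lowest, median and highest tumor. MP tumors 1 and 3 were both at 5.98 TPM and MP tumor 7 at 12.4 TPM, while the library labelled MP tumor 10 was above every ovary. In all, 6 tumors lay below every ovary, 3 within their range and 1 above. The means of 100.2 ± 39.6 and 67.2 ± 57.4 TPM gave a log2 fold change of -1.22 (SE 0.92), which did not pass (limma adjusted P 0.36).

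Neat1 (ENSMUSG00000092274, chr19:5824708-5845478, minus strand) lies beside Malat1 on chromosome 19. It was at 29.4, 15.3 and 19.3 TPM in the ovaries and at 2.94, 9.05 and 26.2 TPM at the lowest, median and highest tumor. No tumor was above every ovary, 7 were below, and MP tumors 4, 5 and 9 were within the ovaries' range. The log2 fold change of -1.13 (SE 0.59), from 21.3 ± 7.28 to 10.95 ± 7.69 TPM, did not pass (limma adjusted P 0.188). The table divides all Neat1 reads by 20771 bases, so the short and the long isoform could not be told apart and a sample with mainly the short one has a lower TPM. The libraries were polyA-selected, while Malat1 and the long Neat1 isoform end without a polyA tail. Their capture in each library was not measured, so RNA level and capture cannot be told apart in the values of these genes.

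Gene length moved with these differences. The median log2 fold change was 0.10 over 2393 tested genes shorter than 1 kb and -0.90 over 5659 genes longer than 5 kb. Malat1 has 6983 bases and Neat1 20771, while the hosts have 853 (Snhg8) to 3760 (Gas5). With the trend on length removed from every library, the log2 fold change was 0.06 for Neat1 (adjusted P 0.920) and -0.36 for Malat1 (0.772), whereas the same 5 hosts stayed higher by 1.43 to 2.17, against 10.4% of all tested genes higher and 10.3% lower under that setting. Snhg5 was at 1.08 (adjusted P 0.0605).

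**Figure D3:**
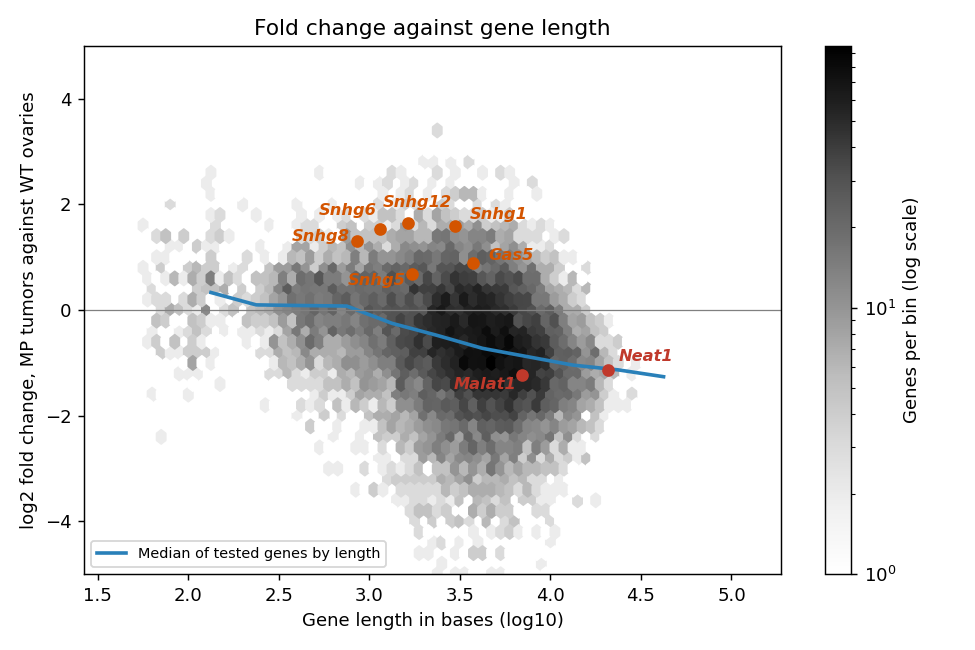
log2 fold change (MP tumors against WT ovaries) against gene length on a log10 scale, for 17277 tested genes binned in grey, with the median by length as a blue line. Snhg5 (0.69), Gas5 (0.88), Snhg8 (1.31), Snhg6 (1.53), Snhg1 (1.59) and Snhg12 (1.65) lie above the line, and Malat1 (-1.22) and Neat1 (-1.13) lie near it.

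Within library set 1, Neat1 was at 3.08, 2.94 and 3.96 TPM in MP tumors 1, 2 and 3 and fell by 2.33 on the log2 scale (limma adjusted P 0.000381), in a comparison where 57.3% of genes were lower. Malat1 was at 5.98, 93.4 and 5.98 TPM in the same tumors, a log2 difference from the ovaries of -2.54 (limma adjusted P 0.054). MP tumor 2 thus had low Neat1 together with Malat1 in the ovaries' range. Genes over 5 kb deviated from their mean over all libraries by a median log2 value of -0.976, -1.45 and -1.11 in these tumors. The median was 0.623 to 0.752 in the ovaries and -0.286 to 0.671 in the other tumors. The part of length in the set 1 differences was not tested.

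The library sets also differed among tumors. Against the 7 tumors of sets 2 and 3, the 3 tumors of set 1 had higher Snhg1 (302 to 527 against 85.5 to 195 TPM; log2 difference 1.55, limma adjusted P 0.00545) and higher Snhg6 (263 to 476 against 105 to 242 TPM; 1.23, adjusted P 0.0161), where 1.29% of all tested genes were higher. Without MP tumor 3 the Snhg6 difference was 0.96 (adjusted P 0.102). Neat1 was lower in set 1 (2.94 to 3.96 against 8.72 to 26.2 TPM; log2 difference -1.71, adjusted P 0.00836), where 30.1% of genes were lower and the median was -0.84. The Neat1 difference was -0.12 with the length trend removed (adjusted P 0.871) and did not pass under median-of-ratios scaling, quantile normalization or voom either. Malat1 differed by -1.88 (adjusted P 0.123), and by -3.13 without MP tumor 2 (adjusted P 0.0246). Gas5, Snhg5, Snhg8 and Snhg12 did not pass, with log2 differences of 0.16 to 0.67, but all 4 passed with median-of-ratios scaling, at 1.5 for Gas5 (adjusted P 0.0102), 2.00 for Snhg5 (0.00285), 1.55 for Snhg8 (0.00744) and 1.97 for Snhg12 (0.00927). They also passed by voom, at 1.51 to 1.98. Of all tested genes, 14.0% were higher and 9.71% lower in set 1 under that scaling, and 14.3% and 10.2% by voom. Each set is also a different group of tumors, so project number and tumor cannot be told apart.

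The ratio of Malat1 to Neat1 was taken within each library as the difference of log2(TPM + 1). It was 2.27, 2.32 and 1.90 in the ovaries, and in the tumors it ran from 0.46 in MP tumor 7 to 4.58 in MP tumor 2. The ovaries were close together, while 5 tumors lay above all of them and 5 below. With nothing added to the TPM, an alternative chosen after seeing the data under which library scaling cancels, MP tumor 9 (2.37) lay within the ovaries' range of 1.95 to 2.39, so 4 tumors lay above and 5 below, and the mean difference was -0.02 (exact permutation P 0.923). The mean ratio was 2.16 ± 0.23 in the ovaries and 2.07 ± 1.42 in the tumors, a difference of -0.09 with a two-sided exact permutation P of 0.902 over 286 groupings, where the smallest possible P was 0.0035. Without MP tumor 2 the difference was -0.37 (exact permutation P 0.618).

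**Figure D4:**
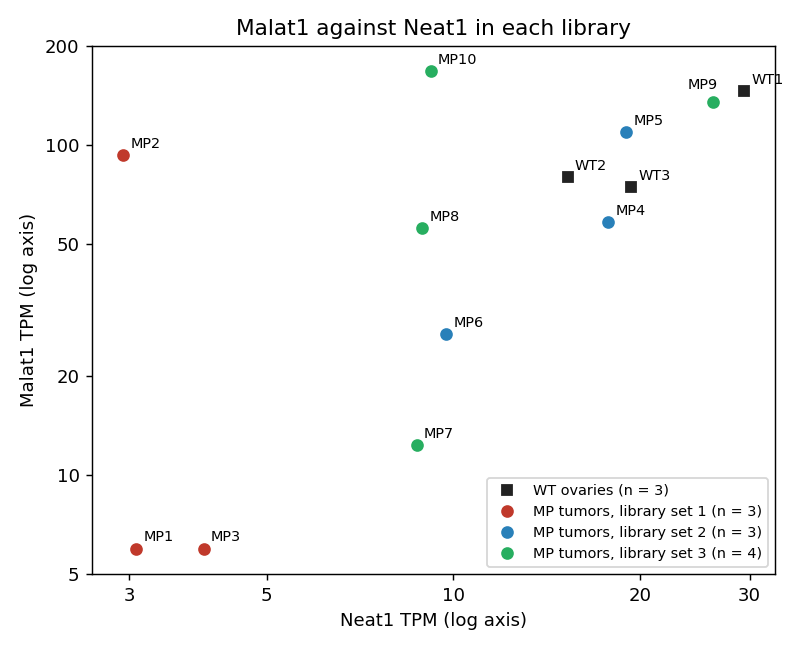
Malat1 TPM against Neat1 TPM (both log axes) in each library, with WT ovaries as black squares and MP tumors as circles coloured by library set. MP tumors 1 and 3 are low for both genes (Malat1 5.98 TPM in each), and MP tumor 2 is low for Neat1 (2.94 TPM) with Malat1 at 93.4 TPM.

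Ordered by mean TPM, the ovaries had Gas5, Malat1, Snhg5, Snhg6, Snhg1, Snhg8, Snhg12, Neat1 and, at 0, Snhg3. The ranges of Snhg5, Snhg6, Snhg1 and Snhg8 overlapped, as did those of Snhg12 and Neat1 and, through their ends, Gas5 and Malat1 and Malat1 and Snhg5, while Snhg8 (lowest 44.4 TPM) lay clear of Snhg12 (highest 29.1 TPM). The tumors had the order Gas5, Snhg6, Snhg1, Snhg8, Snhg5, Snhg12, Malat1 and Neat1, and the ranges of all neighbours overlapped.

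The hosts tended to be high in the same tumors. MP tumor 3 was the highest for Snhg1, Snhg5, Snhg6, Snhg8 and Snhg12 and followed MP tumor 8 for Gas5. MP tumor 5 was the lowest for Gas5, Snhg1, Snhg5 and Snhg6, and MP tumor 2 was the lowest for Snhg8. Over the 10 tumors, Pearson's r between pairs of the 6 detected hosts was 0.38 to 0.94 in 15 pairs, with a median of 0.66. These points share their library, depth and library set, so the correlations are descriptions.

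Among 8821 genes with a mean of at least 10 TPM over the 10 tumors, those most like the mean standardised level of the detected hosts by Pearson's r were Sf3b6 (0.95), 2010107E04Rik (0.95), Snhg15 (0.95), Rpl36al (0.95) and Snord65 (0.94). Those most like Malat1 were Scaper (0.91), Lnpep (0.87), Il11ra1 (0.87), Xiap (0.87) and Rnf144b (0.86), and those most like Neat1 were Disp1 (0.97), Irf2bpl (0.97), Wdsub1 (0.97), Wasf1 (0.97) and Csad (0.97). The genes had 72 to 2854 bases in the first list, 4471 to 9469 in the list for Malat1 and 2265 to 5224 in the list for Neat1.

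Genes around these RNAs were described in 7 lists holding 108 tested genes, of which 26 were higher and 2 lower by limma, against 2.51% and 14.3% of all tested genes. That balance depended on the library sets, since 34 were higher and 34 lower within library set 1 (6.44% and 57.3% of all tested genes), and 33 higher and 31 lower with library set as a covariate (5.17% and 49.4%). Among 12 other noncoding snoRNA hosts, 8 were higher and 1 lower, with a median log2 fold change of 1.61 against -0.58 over all tested genes. Snhg15 rose from 15.7 to 109.5 TPM (log2 fold change 2.53, adjusted P 0.00164) and Snhg20 from 8.19 to 49.6 TPM (2.37, adjusted P 0.00113). Snhg11, which is known from neurons, fell from 1.88 to 0.385 TPM (log2 fold change -1.05, adjusted P 0.0150). Its call was lost with the length trend removed (-0.11, adjusted P 0.887), with median-of-ratios scaling (-0.64, adjusted P 0.106), with quantile normalization (-0.34, adjusted P 0.394) and with 0.1 added to the TPM (-2.25, adjusted P 0.0551). It was kept by voom (-1.97, adjusted P 0.0491) and within library set 1 (-1.05, adjusted P 0.00658). Snhg18, named here after its values were seen, did not pass over all tumors (log2 fold change -1.57, adjusted P 0.171) but was below every ovary in 8 of 10 tumors, and within library set 1 it was lower (-2.93, adjusted P 0.00191), so that 10 of the 12 were higher and 2 lower there.

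Of 24 protein-coding snoRNA hosts, mostly genes of ribosomal proteins and ribosome assembly, 10 were higher and 0 lower at an adjusted P under 0.05 by limma, with a median of 1.06. Of all tested genes, 2.51% were higher and 14.3% lower by that rule. Nop56, a core protein of C/D box snoRNPs that is itself a host, rose from 62.6 to 294 TPM (log2 fold change 2.17, adjusted P 0.000187), and Rpsa, a ribosomal protein gene, from 809 to 2320 TPM (1.49, adjusted P 0.000808). Of 18 snoRNP core proteins and assembly factors, which bind and stabilise the snoRNAs, 8 were higher and 0 lower by limma, with a median of 1.24. For both lists 0 genes were lower at an unadjusted P under 0.05 and 0 by voom, where 17.6% of all tested genes were lower. Within library set 1, 13 coding hosts were higher and 1 lower, and 9 snoRNP genes were higher and 0 lower. Of all tested genes 6.44% were higher and 57.3% lower there. The lower coding host was Eef2, an elongation factor gene named here after its values were seen (log2 fold change -2.79, limma adjusted P 0.00305). The snoRNP genes higher over all tumors included Nop56 and Dkc1, the pseudouridine synthase of H/ACA snoRNPs, which rose from 61.6 to 182 TPM (1.49, adjusted P 0.00588).

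The lists tied to the decay of host RNAs and to the bodies of Malat1 and Neat1 had few calls. None of 10 nonsense-mediated decay factors passed (median -0.53), and within library set 1, where 57.3% of all tested genes were lower, 9 of 10 were lower. None of 14 paraspeckle proteins, the partners of Neat1, passed (median -0.19), with 9 of 14 lower in set 1, near that share of all genes. Of 19 nuclear speckle proteins 1 passed, Srsf7, a splicing factor that rose from 208 to 464 TPM (log2 fold change 1.08, adjusted P 0.0406), and the median was 0.40. Within library set 1, 2 speckle proteins were higher and 6 lower, with a median of -0.45. The Srsf7 call was lost with median-of-ratios scaling (1.79, adjusted P 0.0547), and at the same fold with the stricter filter (0.0585) and with limma without trend and robust (0.0526). At an unadjusted P under 0.05 the counts of 0 stayed at 0 for the decay factors and the paraspeckle proteins. By voom on worked-back reads 2 paraspeckle proteins and 10 speckle proteins were higher, and 0 decay factors in either direction, against 15.8% of all tested genes higher and 17.6% lower.

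Among 13 other long noncoding RNAs, 1 was higher and 1 lower, with a median of 0.28, against 2.51% and 14.3% of all tested genes. Within library set 1 there were 2 higher and 7 lower, with a median of -0.82. Of all tested genes 6.44% were higher and 57.3% lower there, so the count of lower genes was near that share. Mir17hg, the host of the miR-17 cluster of oncogenic microRNAs, rose from 2.43 to 22.5 TPM (log2 fold change 2.71, adjusted P 0.00116), and Mir22hg, the host of miR-22, fell from 29.5 to 5.50 TPM (-2.39, adjusted P 0.00274). With the length trend removed, the counts of higher genes were 9 of 12 noncoding hosts, 15 of 24 coding hosts, 15 of 18 snoRNP genes, 8 of 19 speckle genes, 3 of 14 paraspeckle genes and 3 of 13 other long noncoding RNAs, and 1 of all 108 was lower, against 10.4% of all tested genes higher and 10.3% lower under that setting.

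**Figure D5:**
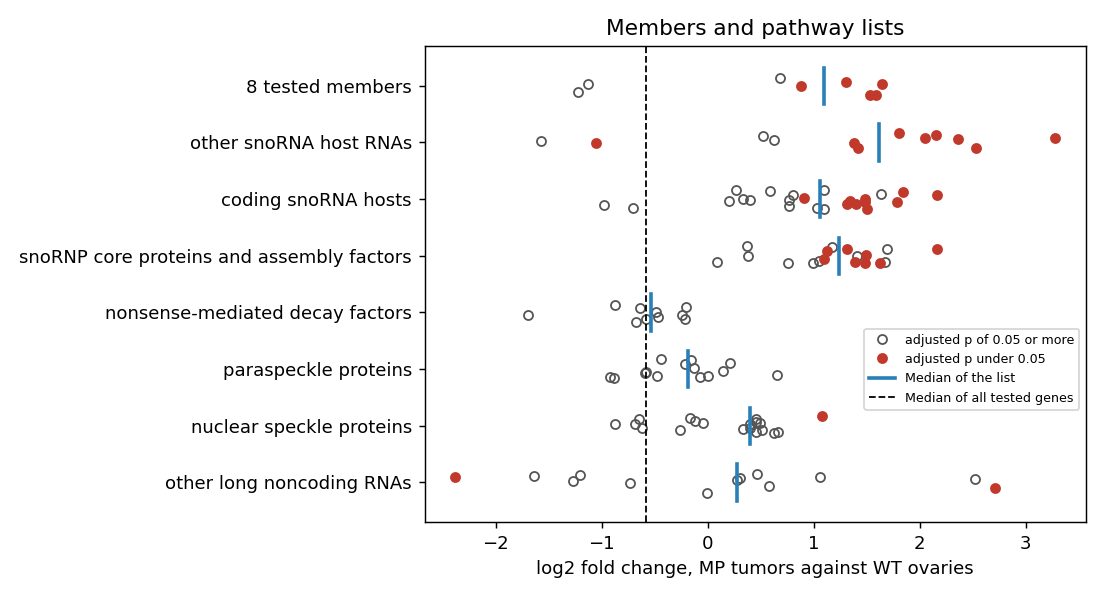
log2 fold change (MP tumors against WT ovaries) of the 8 tested genes and of 7 lists, 1 point a gene, filled where the limma adjusted P was under 0.05. Blue bars are list medians, from 1.61 for the other noncoding hosts to -0.53 for the decay factors, and the dashed line is the median of all tested genes (-0.58).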

How the data were processed

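Polyadenylated RNA of 3 WT ovaries and 10 MP tumors was sequenced as single-end reads. The authors deposited 1 table of TPM per gene and library together with gene lengths. The submitters' processing notes name FastQC 0.11.5, Trimmomatic 0.36, STAR 2.5.3a, featureCounts 1.6.3 and GRCm38, while the labels' protocol names a human build, HTSeq and RPKM, so the build, counter and unit follow the notes and the table. Gene starts and ends matched GENCODE release M21 for 96.2% of genes, and merged exon lengths for 95.4%. Snhg12 did not match in length (1626 bases in the table, 2402 in the annotation).

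Reads were worked back from TPM times length, and 100% of values were whole within 0.01. A read in 1 kb was worth 0.0513 to 0.109 TPM in the ovaries and 0.114 to 0.790 in the tumors, and each detected gene had at least 120 reads in every library. Counting intervals were not computed. Libraries of 1 group differed by more than sampling noise.

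log2(TPM + 1) was tested with limma 3.58.1 (trend, robust) in R 4.3.3 in genes that reached 1 TPM in 3 libraries or more, without a covariate. The study's text used here gives no gene-level test. The Malat1 to Neat1 ratio was tested by exact permutation in scipy 1.17.1. Alternatives were a pseudocount of 0.1, other filters, median-of-ratios scaling, quantile normalization, removal of a length trend, voom, protein-coding genes only, the library sets, a replicate block, limma without trend and robust, and each library left out. The limma script was tested on simulated data. Members, lists and tests were chosen with earlier results of these data known. Within each list, up to 2 called genes in each direction with the largest t were named, besides the 9 genes, the 5 most like genes and rows that overlap a member. Sequences came from RefSeq (GRCm38.p6) and GENCODE. No column of other samples was present.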

Additional observations from a re-analysis of the deposited data

Results flagged for a closer look

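In 3 of 10 measures tested over the 10 MP tumors, 1 tumor lay farther from the others than Dixon's 95% critical value allows, which chance does in about 1 of 20 separate groups. The measures share the same tumors and are not separate: Snhg1 and Snhg6 had a Pearson correlation of 0.94 over the 10 tumors, given as a description, so the count cannot be set against that share. Gas5 was at 496 TPM in MP tumor 8. Snhg1 was at 527 TPM and Snhg6 at 476 TPM in MP tumor 3. The highest and the lowest tumor of each measure were both tried. Genes were taken in TPM, not on the log2 scale of the limma tests, and the gaps on that scale were not tested.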

How the results depend on the processing

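Of the 9 genes, 5 passed the threshold between MP tumors and WT ovaries. The count was 3 with a TPM of at least 1 in every library or with median-of-ratios scaling and 8 with library set as a covariate (6 higher, 2 lower), and without 1 library at a time it was 0 to 5, with 5 genes at an unadjusted P under 0.05 in the fit without WT ovary 3 that had 0. It was 2 without WT ovary 1 or 2 and 3 without MP tumor 1, 7 or 8. The fit with library set as a covariate takes its fold changes from set 1, so it is not separate from the fit within set 1. Genes of the pathway lists past the threshold numbered 28 (26 higher, 2 lower), against 46 with quantile normalization, 52 with the length trend removed, 56 by voom (53 higher, 3 lower), 68 in library set 1 (34 higher, 34 lower), 64 with library set as a covariate (33 higher, 31 lower) and 11 to 34 without 1 library (12, 14 and 11 without WT ovary 1, 2 or 3). Over all tested genes 2896 passed, against 856 with the stricter filter, 5771 by voom, 11014 in set 1, 9428 with the covariate and 1279 to 3763 without 1 library (1293, 1348 and 1279 without WT ovary 1, 2 or 3). Between library sets of tumors 3 of the 9 genes passed, 6 with median-of-ratios scaling or voom, and 2 to 4 without 1 library. The difference in the Malat1 to Neat1 ratio was -0.369 to 0.0896 without 1 library, changing sign without MP tumor 1, 3 or 7. Neat1 turned to 0.0634 with the length trend removed, and the Snhg8 difference between library sets, -0.0751 to 0.534 without 1 library, changed sign without MP tumor 3. The causes were not tested.

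Replicate numbers were used as a replicate block over replicates 1 to 3, although same-numbered libraries did not deviate together (correlations of -0.10, -0.02 and 0.0012). With that block 5 of the 9 genes passed (4 higher, 1 lower), 64 pathway genes (31 higher, 33 lower) and 10933 of all genes. Gas5 (adjusted P 0.104), Snhg5 (0.0553) and, among named list genes, Dkc1 (0.0623), all past the threshold in library set 1 without the block, were not past it. Rows with few reads, such as Snord87 and Gm17300, are limited by depth.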
